A study of Homo sapiens with 15 samples.

Results

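The comparison described here sets 3 RNA-seq libraries of PATU-8988T cells treated for 4 h with YKL-5-124 at 100 nM against 3 libraries of the same cells given DMSO, the solvent, at 0.1%. These are 6 of the 15 libraries of the series, chosen by their labels, and all genes with enough reads were followed: 14461 of the 58676 genes in the read-count table passed the filter on low counts and were tested. PATU-8988T is an established human pancreatic cancer cell line, kept in DMEM with 10% fetal bovine serum. The other 9 libraries are cells given THZ1 at 100 nM for 4 h or 24 h and cells given YKL-5-124 at 100 nM for 24 h, with 3 libraries each. Total RNA was taken from whole cultures, and the labels give no time for the DMSO cultures, which serve both times. Whether replicates were grown apart is not in the labels, so a p-value here reflects only how these samples scatter, which may be technical. The design set cells given the solvent against inhibitors of CDK7 at an early and a late time. The comparison here is the early time of YKL-5-124, the narrower of the 2 compounds.

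CDK7, with cyclin H and MNAT1, forms the kinase module of TFIIH and phosphorylates the tail of RNA polymerase II as genes start to be transcribed. The same trimer activates the CDKs that drive the cell cycle. YKL-5-124 and THZ1 both bind CDK7 covalently, and THZ1 is known to also hit CDK12 and CDK13, the kinases of productive elongation. When transcription slows, mRNAs that are quickly degraded, such as those of immediate-early genes, are known to drop first, while stable mRNAs persist.

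The 6 libraries held 18929158 to 22869590 counted reads each, and the tested genes took 99.9% of these. The label of an epithelial cancer line was checked on cell type markers. For these markers CPM is counts scaled to all counted reads of a library, and elsewhere it is counts scaled to TMM library sizes. KRT8 lay between 1145 and 1399 CPM, KRT18 between 494 and 627 CPM and VIM between 178 and 219 CPM over the 6 libraries. The summed level of 15 epithelial and ductal markers was 1723 to 1902 CPM in DMSO and 1731 to 1930 CPM after YKL-5-124, nearly all of it KRT8 and KRT18. Only 6 of the 15 passed the filter on low counts, and the E-cadherin gene CDH1, a defining epithelial marker, reached at most 0.475 CPM. The summed level of 12 mesenchymal markers was 872 to 1250 CPM in DMSO and 902 to 1246 CPM after YKL-5-124, so that markers of both kinds were present. Markers of immune cells summed to at most 1.86 CPM and those of acinar cells to at most 0.612 CPM in any of the 6 libraries. Libraries of the same group differed in how they stood to each other. DMSO replicate 2 stood apart from DMSO replicates 1 and 3, and YKL-5-124 replicate 1 stood apart from YKL-5-124 replicates 2 and 3. The chi-square per degree of freedom of the counts was 59.9 and 53.3 for the pairs with DMSO replicate 2, against 4.73 for the other DMSO pair. It was 42.9 and 39 for the pairs with YKL-5-124 replicate 1, against 8.47 for the other treated pair. Counts are therefore given below also with these 2 libraries left out, an alternative chosen after the data were seen. The libraries that remain lie on opposite sides of the main axis of differences within groups, which is described below. Scores on it were −0.20 and −0.14 for DMSO replicates 1 and 3, and 0.14 and 0.13 for YKL-5-124 replicates 2 and 3. In that fit treatment and this axis cannot be told apart, and MKI67 had a log2 fold change of 2.71. A call kept there is therefore no check on the spread between libraries.

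After 4 h of YKL-5-124 a small set of genes fell and a few rose. By edgeR's quasi-likelihood F test, with p-values adjusted by Benjamini-Hochberg over all 14461 genes and a threshold of 0.05, 67 genes (0.463% of those tested) were lower and 8 genes (0.0553%) were higher than in DMSO, 75 (0.519%) in all. Adjusted p-values in the following are from this test, and log2 fold changes are of YKL-5-124 over DMSO, with their standard error (SE). The 67 lower genes had a median log2 fold change of −0.95, from −3.23 to −0.45, and the 8 higher genes lay between 0.50 and 1.87. Of the lower genes 29 (0.201% of those tested) were at least 2-fold down, and of the higher genes 5 (0.0346%) were at least 2-fold up. All 67 lower genes had their 3 treated libraries below all 3 DMSO libraries, and all 8 higher genes had them above. Over all genes tested, 1379 (9.54%) lay below and 958 (6.62%) above in this way.

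Most genes moved little. Over all genes tested the fold change had a median of 0.00 and an interquartile range of −0.18 to 0.15 on the log2 scale, with the lowest and highest 5% beyond −0.61 and 0.57. For 10395 genes (71.9%) the 95% interval of the fold change lay within 2-fold either way, and for 6405 genes (44.3%) within 1.5-fold. At an unadjusted p under 0.05, 939 genes (6.49%) were lower and 477 (3.3%) were higher, 1416 (9.79%) in all. A further 429 genes had a fitted change of at least 2-fold without a call, at a median of 0.356 CPM. The called genes varied less between DMSO libraries than the rest: their median SD of log2 CPM was 0.119 in DMSO, against 0.229 over all genes. The genomic span of the 67 lower genes had a median of 13061 bases, against 28563 bases over all genes tested.

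**Figure D1:**
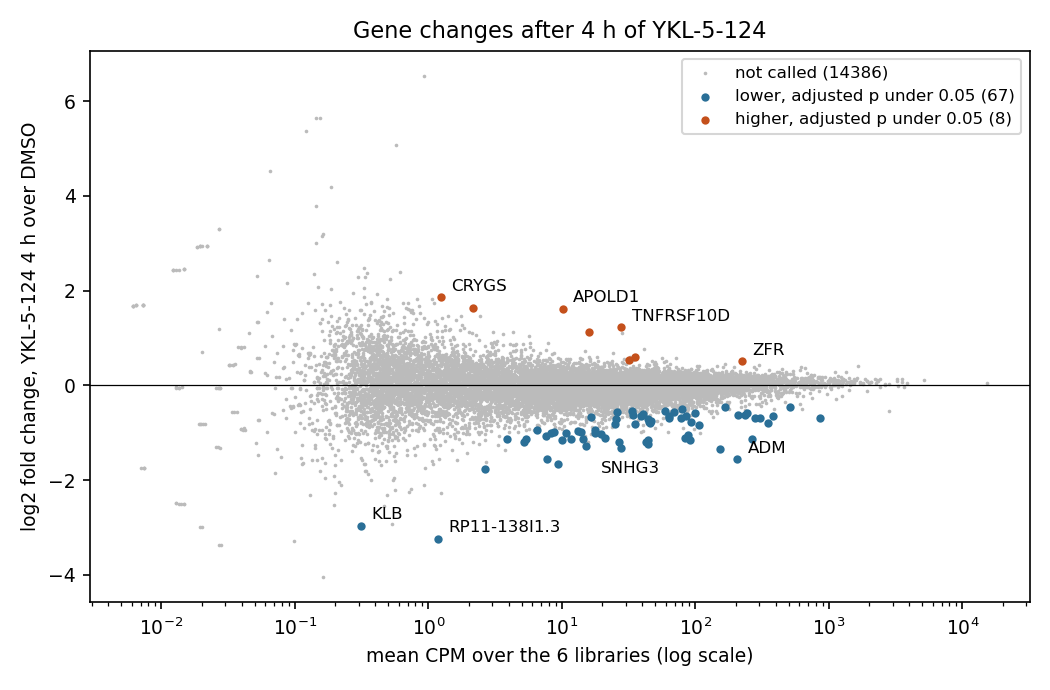
Log2 fold change of YKL-5-124 4 h over DMSO (vertical axis) against the mean level over the 6 libraries in CPM (horizontal axis, log scale) for all 14461 genes tested. Blue points are the 67 lower genes and orange points the 8 higher genes; most other genes lie close to 0, and genes at low CPM scatter widely.

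How many genes passed rested on single libraries. Leaving out DMSO replicate 1, 2 or 3 left 33, 68 or 23 called genes, and leaving out YKL-5-124 replicate 1, 2 or 3 left 72, 8 or 26. With DMSO replicate 2 and YKL-5-124 replicate 1 both left out, 182 genes were called, 45 higher and 137 lower, and 57 of the 75 were among them. All 75 kept their sign in each of the 20 alternatives run on them. ADM, BHLHE40, SNHG3, EIF4A2 and FUT4 were called in all 20, and 8 genes were called without each of the 6 libraries in turn: these 5 and FBXO43, G2E3 and ZBTB21.

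Genes that cells switch quickly in response to signals made up 10 of the 67 lower genes. The called genes were grouped by known function after their values were seen, so the groups below are a description. BHLHE40, a transcriptional repressor that responds to hypoxia and the circadian clock (ENSG00000134107, chr3:4979116-4985323 in the table's coordinates), was at 18.3, 18.1 and 19.3 CPM in DMSO replicates 1, 2 and 3 and at 9.18, 9.26 and 9.55 CPM in the treated replicates. The groups lay far apart and both were narrow. Its log2 fold change was −0.99 (SE 0.09, adjusted p = 0.000203), which is 50.4% of the DMSO level with a 95% interval of 44.1% to 57.5%.

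JUN, a subunit of the AP-1 transcription factor (chr1:58780788-58784327), was at 110, 146 and 120 CPM in DMSO and at 44.3, 54.7 and 70 CPM after YKL-5-124. Every treated library was lower than every DMSO library, and the log2 fold change was −1.15 (SE 0.18, edgeR adjusted p = 0.00829). DUSP1, a phosphatase that switches off MAP kinases (chr5:172768090-172771195), was at 67.5, 44.6 and 70.3 CPM in DMSO and at 33.1, 25.6 and 23.2 CPM after treatment. DMSO replicate 2 was the lowest control for DUSP1 and still above all 3 treated libraries, and the log2 fold change was −1.15 (SE 0.19, edgeR adjusted p = 0.013). PLK2, a stress-responsive polo-like kinase (chr5:58453982-58460260), fell from 229, 196 and 237 CPM to 107, 77.3 and 76.4 CPM. This is a log2 fold change of −1.34 (SE 0.19, edgeR adjusted p = 0.00577), or 39.4% of DMSO.

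The kinases SGK1 and PIM1 fell as well. SGK1, a kinase induced by serum and glucocorticoids, was at 43.5, 30.8 and 36.8 CPM in DMSO and at 19.2, 13.9 and 15.4 CPM after YKL-5-124 (43.7% of DMSO, 95% interval 33.9% to 56.3%, edgeR adjusted p = 0.00595). PIM1, a survival kinase, went from 21.8, 16.3 and 21.1 CPM to 9.49, 7.75 and 9.82 CPM, and lay close to the threshold (log2 fold change −1.13, SE 0.23, edgeR adjusted p = 0.0452). RGS2, which limits signalling through G proteins, fell to 43.5% of DMSO. CITED2, a coactivator that restrains HIF-1, was at 47.6, 40.4 and 47.6 CPM in DMSO and at 25.9, 25.3 and 25.8 CPM after treatment, so that the treated libraries were nearly equal (log2 fold change −0.82, SE 0.12, edgeR adjusted p = 0.00652). The arrestin-domain gene ARRDC2 had a log2 fold change of −1.08. Without YKL-5-124 replicate 2, 9 of these 10 genes missed the threshold and BHLHE40 alone held. DMSO replicates 1, 2 and 3 cost 3, 1 and 4 of the calls when left out, and YKL-5-124 replicates 1 and 3 cost 1 and 4. The fold changes of the 10 stayed between −1.52 and −0.78 in all these fits, and all 10 were called without the 2 libraries that stand apart.

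**Figure D2:**
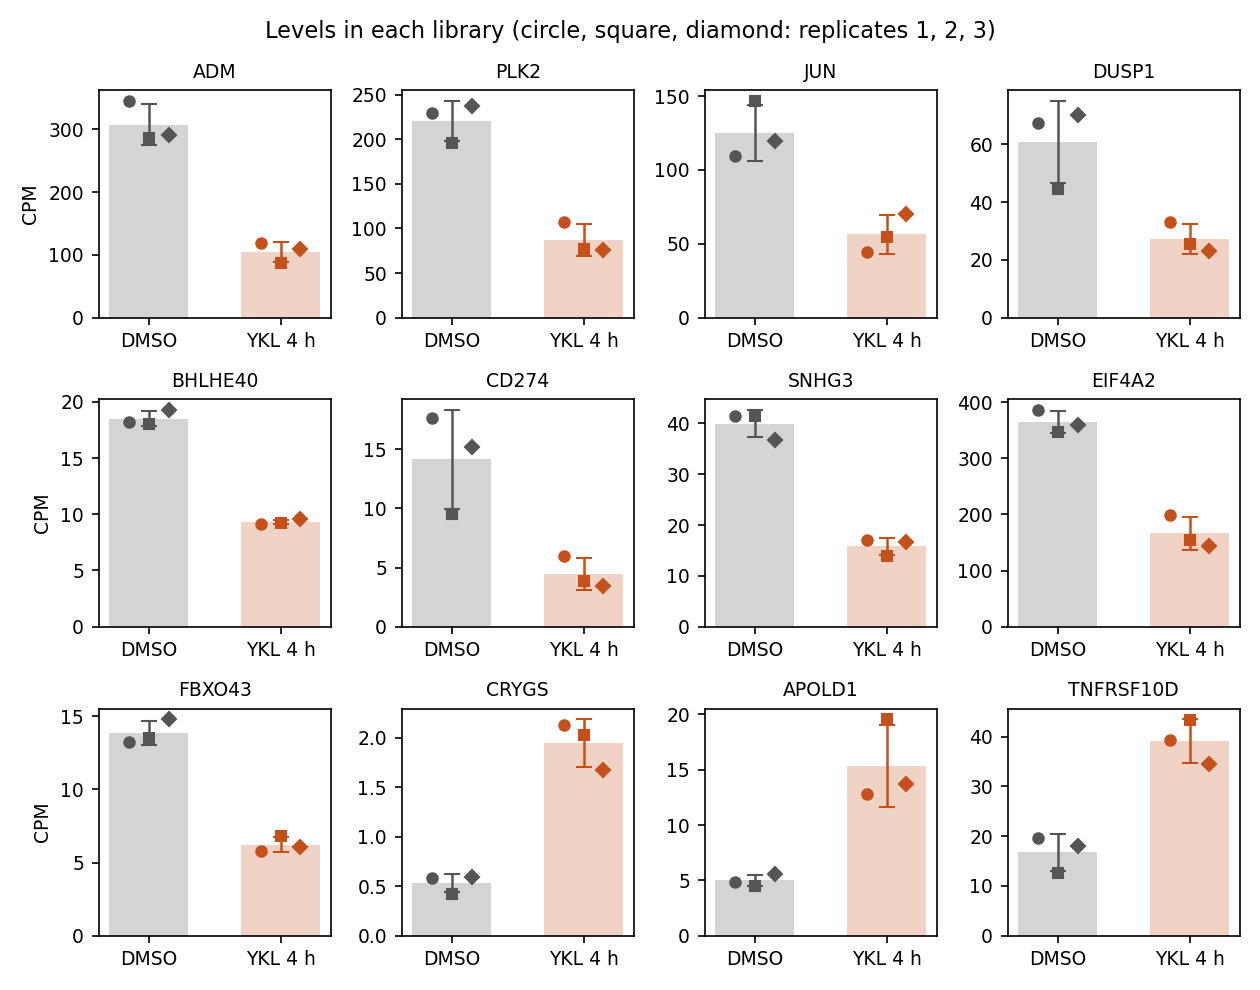
CPM of 12 called genes in each library (points; circles, squares and diamonds are replicates 1, 2 and 3), with the mean as a bar and the SD (n = 3) as an error bar, for DMSO (grey) and YKL-5-124 4 h (orange). Each axis starts at 0; in every panel the 3 treated libraries lie on the same side of all 3 DMSO libraries.

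Not every early-response gene moved. Of a list of 50 immediate-early and short-lived transcripts, 46 were tested, 6 fell (PLK2, SGK1, DUSP1, JUN, CTGF and CYR61) and none rose. Over all genes 0.463% were called lower and 0.0553% higher. The 46 had a median log2 fold change of −0.35, against 0.00 over all genes. Of them 24 (52.2%) had all treated libraries below all DMSO libraries and 1 (2.17%) lay above, against 9.54% and 6.62% of all genes. The mean of the list, relative to its DMSO mean on the log2 scale, was 0.01, −0.05 and 0.03 in DMSO replicates 1 to 3 and −0.39, −0.50 and −0.36 in the treated ones. Members past no threshold ran both ways: HES1 had a log2 fold change of −1.63, KLF6 of −0.97 and MYC of −0.53, while FOS was at 0.26, EGR1 at 0.27 and JUNB at 0.35. MYC averaged 103 CPM in DMSO and 71.3 CPM after treatment (edgeR adjusted p = 0.21). Of 24 tested genes of the ERK pathway's output none was called, which is usual for so short a list at 0.463% of all genes called lower. Their median was −0.21, with DUSP6 at −0.44 and DUSP4 at −1.08. All treated libraries lay below all DMSO libraries for 8 of the 24 (33.3%) and above for 1 (4.17%), against 9.54% and 6.62% of all genes.

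Secreted factors and cell-surface proteins gave 9 lower genes. ADM encodes adrenomedullin, a secreted peptide that widens blood vessels (ENSG00000148926, chr11:10304680-10307397). It was at 345, 287 and 290 CPM in DMSO and at 118, 86.8 and 109 CPM after YKL-5-124. The lowest DMSO library was more than 100 CPM above the highest treated library, and the log2 fold change was −1.55 (SE 0.15, edgeR adjusted p = 0.00024), which is 34.1% of DMSO (95% interval 27.3% to 42.5%). LIF, a cytokine of the interleukin-6 family, went from 7.15, 7.39 and 7.29 CPM to 3.56, 3.32 and 2.55 CPM (log2 fold change −1.21, SE 0.22, edgeR adjusted p = 0.0229).

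CTGF and CYR61 are secreted targets of TGF-beta and YAP signalling at high levels in these cells. CTGF was at 430, 482 and 411 CPM in DMSO and at 227, 253 and 288 CPM after treatment (log2 fold change −0.78, SE 0.13, edgeR adjusted p = 0.0127). CYR61 was at 449, 510 and 441 CPM in DMSO and at 253, 324 and 317 CPM after treatment (log2 fold change −0.65, SE 0.13, edgeR adjusted p = 0.0471). For both genes the groups did not overlap. In the list of 23 TGF-beta and YAP targets, 20 were tested and 3 were lower, CTGF and CYR61 among them, with a median of −0.36 and no higher call. Of the 20, 10 (50%) lay below DMSO in all treated libraries and none above, against 9.54% and 6.62% of all genes. Over all genes 0.463% were called lower. Members without a call include ID1 at −1.15 (edgeR adjusted p = 0.055) and NUAK2 at −1.03. The list mean was −0.07, 0.19 and −0.13 in DMSO and −0.61, −0.27 and −0.33 after YKL-5-124, with the lowest value in YKL-5-124 replicate 1.

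At the cell surface, CD274, the immune checkpoint ligand PD-L1 (chr9:5450503-5470566), had the largest fall among called coding genes above 3 CPM. It was at 17.7, 9.56 and 15.2 CPM in DMSO and at 6, 3.87 and 3.48 CPM after YKL-5-124. The DMSO libraries spread widely and did not reach the treated ones, and the log2 fold change was −1.66 (SE 0.29, edgeR adjusted p = 0.016). The sphingosine-1-phosphate receptor gene S1PR1 fell to 50.0% of DMSO. KLB, a co-receptor for hormonal FGFs, was hardly detected: 5 reads in the 3 treated libraries stood against 40 in DMSO, a ratio of 0.119 with a counting interval of 0.0367 to 0.302. Of 22 tested NF-kB targets LIF was the only call, where 0.463% of all genes were called lower. The median was −0.29, with list means of 0.15, −0.22 and 0.07 in DMSO and −0.21, −0.51 and −0.48 after YKL-5-124. DMSO replicate 2 lay below YKL-5-124 replicate 1 in this list, so the groups overlapped. The list of hypoxia and glycolysis genes, to which ADM belongs, had a median of 0.07 over 30 tested genes, with ADM and HK2 lower. Of the 9 secreted and surface genes only ADM held without every library in turn. Leaving out DMSO replicates 1, 2 and 3 cost 5, 2 and 6 of the calls, and leaving out YKL-5-124 replicates 1, 2 and 3 cost 4, 8 and 7. Their fold changes lay between −3.16 and −0.54 in these fits, and 5 were called without the 2 libraries that stand apart.

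Several of the most strongly lowered genes share a short sequence before their start. RefSeq promoters (GRCh38.p14) were matched by symbol for 51 of the 67 lower genes and 10398 of the 14461 tested genes. The letters TATAA stood on the gene's own strand between 45 and 11 bases before the start in 8 of the 51 (15.7%), against 309 of the 10398 (2.97%). On either strand anywhere in the 250 bases before the start they stood in 9 of the 51 (17.6%), against 1077 (10.4%). Of the 6 higher genes with a promoter 1 held it. A match is a description of these letters, not a measured binding site. The 8 lower genes with the match are shown with their 30 bases from 45 to 16 before the RefSeq start, 5′ to 3′ on the gene's strand, with TATAA in capitals, and JUN and BHLHE40 as lowered genes without it.
ADM: ctcccccacccgtgcgctTATAAagcacag
PLK2: cttcccgcctccccgtaTATAAgacttcgc
DUSP1: cccccagaggccgcaTATAAacgcgctccc
CTGF: gccgcccggagcgTATAAaagcctcgggcc
EIF4A2: ttccggccacgagccTATAAaaaacgggtg
SNHG12: ccgcgaggggcggcctaTATAAgctcttgc
MEPCE: gcccacactcgctggtaTATAAgtcggcgt
MAT2A: gcgggcgctgctcTATAAataccgggccgc
JUN: gggttgactggtagcagataagtgttgagc
BHLHE40: ccccctcacccgctccctcccgcctccccg

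These stretches lie at chr11:10305028-10305057 on the plus strand for ADM, chr5:58460102-58460131 on the minus strand for PLK2, chr5:172771211-172771240 on the minus strand for DUSP1 and chr6:131951388-131951417 on the minus strand for CTGF. Those of EIF4A2 (chr3:186783532-186783561), MEPCE (chr7:100428745-100428774), MAT2A (chr2:85539123-85539152) and BHLHE40 (chr3:4979392-4979421) are on the plus strand. Those of SNHG12 (chr1:28581889-28581918) and JUN (chr1:58784063-58784092) are on the minus strand. The genes with the match differ in what they do and in how far they fell, from −1.55 for ADM and SNHG12 to −0.59 for MAT2A.

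Genes that carry small nucleolar RNAs (snoRNAs) in their introns were a further 8 of the 67. Such host genes are spliced to release snoRNAs, which guide the modification of ribosomal RNA, and many host transcripts are themselves short-lived. SNHG3 (chr1:28505980-28510892) was at 41.5, 41.4 and 36.8 CPM in DMSO and at 17, 13.9 and 16.7 CPM after YKL-5-124. Neither group spread by more than 5 CPM, and the log2 fold change was −1.33 (SE 0.15, edgeR adjusted p = 0.00127), or 39.7% of DMSO. SNHG12 (chr1:28578538-28582983) went from 12.8, 11.3 and 10.8 CPM to 4.18, 3.76 and 3.96 CPM, a log2 fold change of −1.55 (SE 0.22, edgeR adjusted p = 0.00577). SNHG1 went from 133, 94.2 and 115 CPM to 67.1, 48.5 and 43.6 CPM, with wider groups that still did not meet (log2 fold change −1.10, SE 0.19, edgeR adjusted p = 0.015). SNHG17 fell by 0.57 on the log2 scale, and the unnamed transcript AC005682.5 fell by 1.14.

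Protein-coding hosts fell too. EIF4A2, an RNA helicase of translation initiation (chr3:186783205-186789900), was at 386, 347 and 359 CPM in DMSO and at 199, 155 and 144 CPM after YKL-5-124. The highest treated library was far below the lowest control, and the log2 fold change was −1.13 (SE 0.14, edgeR adjusted p = 0.00174). TAF1D, a subunit of the RNA polymerase I factor SL1, went from 130, 108 and 119 CPM to 67.4, 54 and 51 CPM (log2 fold change −1.05, SE 0.15, edgeR adjusted p = 0.00595). RABGGTB, the catalytic subunit of Rab geranylgeranyl transferase, fell to 56.1% of DMSO (log2 fold change −0.83).

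Over the list of 22 snoRNA host genes, 21 were tested, 5 fell and none rose, and the median was −0.54. Over all genes 0.463% were called lower and 0.0553% higher. The list mean was 0.12, −0.13 and 0.01 in DMSO and −0.37, −0.57 and −0.46 after treatment. Members without a call include SNHG7 at −0.99 and SNHG16 at −0.69, both at an edgeR adjusted p = 0.065, GAS5 at −0.58 (175 CPM in DMSO and 117 CPM after treatment) and SNHG6 at 0.03. The wider class of genes that hold a snoRNA sat near the middle of all genes: over all 243 tested genes with an annotated snoRNA inside, a class chosen after the values were seen, the median was −0.01 and 8 were lower. They are 11.9% of the lower genes, while the class is 1.68% of all genes tested. Among the 8, only SNHG3 and EIF4A2 held without each library in turn. DMSO replicates 1, 2 and 3 cost 4, 1 and 4 of the calls when left out, YKL-5-124 replicates 1, 2 and 3 cost 2, 6 and 4, and 7 were called without the 2 libraries that stand apart.

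Genes of RNA processing contributed 8 lower genes, with smaller changes around a median of −0.66. HNRNPDL, an RNA-binding protein that regulates splicing, was at 402, 353 and 383 CPM in DMSO and at 263, 203 and 238 CPM after YKL-5-124 (log2 fold change −0.69, SE 0.10, edgeR adjusted p = 0.00601). SRSF6, a splicing factor rich in serine and arginine, went from 386, 285 and 364 CPM to 246, 199 and 201 CPM (log2 fold change −0.68, SE 0.12, edgeR adjusted p = 0.016). RBM39, another splicing factor, and the RNA helicase DDX17 fell by 0.63 and 0.46 on the log2 scale. In each of these the groups did not overlap.

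Other genes of this group act on the polymerase and its transcripts. JMJD6, a hydroxylase that modifies splicing proteins, went from 27.4, 23.7 and 27.7 CPM to 13, 11.3 and 14.4 CPM (log2 fold change −1.03, SE 0.14, edgeR adjusted p = 0.00577). INTS6, a subunit of the Integrator complex that cleaves nascent transcripts, went from 56.3, 59.2 and 57.3 CPM to 40, 32.6 and 27.6 CPM (log2 fold change −0.79, SE 0.12, edgeR adjusted p = 0.00773). MEPCE, which caps the 7SK RNA that holds the elongation kinase P-TEFb in reserve, went from 75.7, 78.5 and 78.2 CPM to 50.3, 47 and 51.6 CPM (log2 fold change −0.64, SE 0.12, edgeR adjusted p = 0.0213). N4BP2L2 fell by 0.54. Of 32 tested elongation kinases and factors MEPCE was the only call and the median was 0.04. Of 34 tested regulators of mRNA decay and splicing, SRSF6 and RBM39 fell and none rose, at a median of −0.09. For comparison, 0.463% of all genes were called lower and 0.0553% higher, so a single call or none in such a list says little. The splicing kinase CLK2 went the other way without a call, from a mean of 18.4 CPM to 29.6 CPM (log2 fold change 0.69, edgeR adjusted p = 0.0631). None of the 8 held without every library in turn. Leaving out YKL-5-124 replicate 2 cost all 8 calls, YKL-5-124 replicates 1 and 3 cost 1 and 5, and DMSO replicates 1, 2 and 3 cost 5, 1 and 5. Fold changes stayed between −1.11 and −0.42, and 7 of the 8 were called without the 2 libraries that stand apart.

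Cell-cycle and nuclear-structure genes made up 10 of the lower genes, with a median of −0.69. FBXO43 and FBXO5 encode EMI2 and EMI1, inhibitors of the ubiquitin ligase that ends mitosis. FBXO43 (chr8:100133360-100145800) was at 13.2, 13.5 and 14.8 CPM in DMSO and at 5.81, 6.83 and 6.03 CPM after YKL-5-124, with narrow groups well apart (log2 fold change −1.15, SE 0.16, edgeR adjusted p = 0.00577). FBXO5 went from 85, 68.6 and 79.5 CPM to 55.5, 47.4 and 41.9 CPM (log2 fold change −0.69, SE 0.13, edgeR adjusted p = 0.0283). CENPA, the histone H3 variant of centromeres, went from 104, 91.2 and 94.8 CPM to 59.8, 56.2 and 63.1 CPM (log2 fold change −0.70, SE 0.11, edgeR adjusted p = 0.00696). G2E3, a ubiquitin ligase named for its peak in G2, was at 118, 115 and 115 CPM in DMSO and at 72.1, 74.9 and 57.5 CPM after treatment (log2 fold change −0.76, SE 0.11, edgeR adjusted p = 0.00601).

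MCPH1, which times chromosome condensation, went from 17.1, 15.9 and 19 CPM to 9.49, 8.26 and 9.03 CPM (log2 fold change −0.96). The centrosomal gene CEP85 fell by 0.53. Among genes of the nuclear envelope and pore, LMNB1, encoding lamin B1, was at 196, 193 and 188 CPM in DMSO and at 146, 137 and 139 CPM after YKL-5-124 (log2 fold change −0.45, SE 0.08, edgeR adjusted p = 0.0231). NUP35 and ANKLE2 fell by 0.66 and 0.50. AEN, a nuclease induced by p53, went from 54.4, 57.1 and 63.7 CPM to 35, 32.6 and 36.1 CPM (log2 fold change −0.76). Of the 10, FBXO43 and G2E3 held without each library in turn. Leaving out DMSO replicates 1, 2 and 3 cost 5, 3 and 7 calls, YKL-5-124 replicates 1, 2 and 3 cost 2, 8 and 6, and 8 were called without the 2 libraries that stand apart.

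The wider cell-cycle lists held few calls at 4 h, as lists of their size would at the 0.463% of all genes called lower. None of 55 tested G1/S and DNA replication genes was called in either direction, with a median of −0.07; 8 had an unadjusted p under 0.05 on the lower side, 9 lay below and 3 above all DMSO libraries. Of 54 tested G2/M and mitosis genes CENPA was the only call, the median was −0.13 (between −0.24 and −0.10 over the alternatives), and 14 (25.9%) lay below all DMSO libraries and none above, against 9.54% and 6.62% of all genes. None of 26 genes of the ATR checkpoint and of 34 tested homologous recombination and Fanconi genes was called, with medians of −0.09 and −0.08. For the ATR list the means were −0.02, 0.04 and −0.02 in DMSO and −0.12, −0.10 and −0.16 after YKL-5-124. The homologous recombination list had means of −0.01, −0.01 and 0.02 in DMSO and −0.09, −0.13 and −0.15 after treatment. G1/S means overlapped, with −0.09 in DMSO replicate 2 and −0.05 in YKL-5-124 replicate 1. BRCA1 was at a log2 fold change of 0.00, WEE1 at −0.48 and FANCM at −0.63 (edgeR adjusted p = 0.081), none of them called. MKI67, the proliferation marker, could not be judged: it was at 22.3, 454 and 28.6 CPM in DMSO and at 15.6, 155 and 178 CPM after YKL-5-124. Its log2 fold change of −0.53 had an SE of 1.35, and without DMSO replicate 2 it was 2.19.

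Transcription factors and chromatin proteins gave 11 lower genes, with a median of −0.71. ZBTB21, a zinc-finger repressor, was the most even of them, at 22.8, 24.5 and 23.1 CPM in DMSO and 12.2, 11.4 and 11.5 CPM after YKL-5-124 (49.9% of DMSO, 95% interval 41.8% to 59.7%, edgeR adjusted p = 0.00174). NFYA, the subunit of NF-Y that contacts the CCAAT box, went from 53.6, 54.7 and 56.9 CPM to 30.8, 34.4 and 35.4 CPM (log2 fold change −0.71, SE 0.11, edgeR adjusted p = 0.00696). RFXAP, a subunit of the RFX complex that drives MHC class II genes, fell to 50.5% of DMSO. POLR1B, a large subunit of RNA polymerase I, was at 122, 120 and 119 CPM in DMSO and at 82.6, 81.5 and 75.4 CPM after treatment (log2 fold change −0.59, SE 0.10, edgeR adjusted p = 0.0088). It was the only call among 35 genes of ribosome biogenesis and MYC targets, where 0.463% of all genes were called lower. The median of these 35 was −0.04.

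The methyl-lysine reader L3MBTL3 and the chromatin repressor BEND3 fell by 0.95 and 1.01. The zinc-finger genes ZNF586, ZNF33B and ZBTB11 fell by 1.13, 0.66 and 0.62, and the homeobox gene ADNP2 and the bZIP gene CREBZF by 0.70 and 0.64. ZBTB11 shares 12.0% of its exon bases with its antisense gene ZBTB11-AS1, and since the strand setting of the counting is not given, reads of the pair cannot be told apart. Only ZBTB21 held without each library in turn. Leaving out DMSO replicates 1, 2 and 3 cost 8, 5 and 10 of the 11 calls, YKL-5-124 replicates 1, 2 and 3 cost 4, 10 and 9, and 7 were called without the 2 libraries that stand apart.

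Metabolic enzymes and other proteins accounted for 9 further lower genes. FUT4, a fucosyltransferase that builds the Lewis x antigen (chr11:94543840-94549898), was at 16.4, 15.1 and 16.9 CPM in DMSO and at 7.55, 7.05 and 7.53 CPM after YKL-5-124, with a log2 fold change of −1.13 (SE 0.14, edgeR adjusted p = 0.00214). Of its exon bases 11.3% are shared with PIWIL4. MAT2A, which makes the methyl donor S-adenosylmethionine, went from 319, 285 and 282 CPM to 206, 196 and 186 CPM (log2 fold change −0.59, SE 0.11, edgeR adjusted p = 0.0288), and shares 12.4% of its exon bases with GGCX. HK2, the hexokinase that commits glucose to glycolysis, went from 82.5, 84.2 and 81.3 CPM to 60.9, 52.4 and 53.8 CPM (log2 fold change −0.57, SE 0.12, edgeR adjusted p = 0.0471). The glucosylceramide synthase gene UGCG fell by 0.64, the ubiquitin ligase subunit FBXO31 by 0.82, the mitochondrial fission regulator MTFR2 by 1.10 and the CDC42 effector TRIP10 by 0.60. SERTAD4 and FAM84B fell by 0.78 and 0.95, and FAM84B shares 21.5% of its exon bases with PCAT1. Only FUT4 held without each library in turn. Leaving out DMSO replicates 1, 2 and 3 cost 6, 2 and 8 calls, YKL-5-124 replicates 1, 2 and 3 cost 5, 8 and 8, and 7 were called without the 2 libraries that stand apart. The last 2 of the 67 are noncoding and rare: RP11-138I1.3, with 17 reads after treatment against 153 in DMSO, and AC010761.8, with 90 against 295, which shares 17.2% of its exon bases with RPL23A. The first lost its call without DMSO replicate 1 or 3 or YKL-5-124 replicate 2 or 3, and AC010761.8 without DMSO replicate 3 or YKL-5-124 replicate 2.

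None of the 8 higher genes belongs to a gene list used here. TNFRSF10D, a decoy receptor for the death ligand TRAIL (chr8:23135588-23164030), was at 19.6, 12.5 and 18.1 CPM in DMSO and at 39.4, 43.3 and 34.5 CPM after YKL-5-124. The treated libraries all lay well above the controls, and the log2 fold change was 1.22 (SE 0.18, edgeR adjusted p = 0.00601). APOLD1, an early-response gene of endothelial cells, went from 4.88, 4.53 and 5.56 CPM to 12.8, 19.6 and 13.7 CPM (log2 fold change 1.62, SE 0.24, edgeR adjusted p = 0.00601), and 25.4% of its exon bases are shared with DDX47. KRCC1 went from 11.7, 8.43 and 10.3 CPM to 25, 22.7 and 18.4 CPM (log2 fold change 1.12, SE 0.23, edgeR adjusted p = 0.0452). ZFR, an RNA-binding zinc-finger protein, was the most abundant higher gene, at 173, 197 and 187 CPM in DMSO and 261, 286 and 244 CPM after treatment (log2 fold change 0.50, SE 0.10, edgeR adjusted p = 0.0402).

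CRYGS, a crystallin known from the lens, was rare: 148 reads after treatment against 38 in DMSO gave a ratio of 3.71 with a counting interval of 2.58 to 5.45, and 14.5% of its exon bases are shared with TBCCD1. ZNF425 was at 0.932, 1.47 and 0.758 CPM in DMSO and at 2.28, 4.21 and 3.35 CPM after treatment. TMEM129, a ubiquitin ligase of the endoplasmic reticulum, and RETSAT, which saturates retinol, rose by 0.60 and 0.54 on the log2 scale. None of the 8 held without each library in turn. Leaving out DMSO replicates 1, 2 and 3 cost 5, 4 and 6 of the 8 calls, YKL-5-124 replicates 1, 2 and 3 cost 2, 8 and 5, and 4 were called without the 2 libraries that stand apart.

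The mRNAs of the targeted kinase and its partners were not called. CDK7 was at 67.1, 54.3 and 67.3 CPM in DMSO and at 62.3, 52.1 and 49.9 CPM after YKL-5-124, with overlapping groups and a log2 fold change of −0.20 (95% interval −0.52 to 0.12, edgeR adjusted p = 0.781). An inhibitor of the protein need not change this mRNA, so CDK7 is no check of the labels. CCNH, which encodes cyclin H, was at a log2 fold change of −0.03 and MNAT1 at 0.02, and the elongation kinases CDK12 and CDK13 at −0.16 and −0.01. None of the 29 tested genes of TFIIH and the core polymerase II machinery was called, and their median was 0.03. Of 29 p53 targets PLK2 and AEN fell and none rose, with a median of 0.15, where 0.463% of all genes were called lower. All treated libraries lay below all DMSO libraries for 4 genes (13.8%) and above for 6 (20.7%), against 9.54% and 6.62% of all genes. CDKN1A, the p53 target that inhibits CDKs, was at 0.32 (edgeR adjusted p = 0.71) and MDM2 at −0.12.

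Apart from the hypoxia list, lists of stress, metabolism and survival genes held no call. With 0.519% of all genes called in either direction, lists of this size would rarely hold one. Medians were −0.09 for 28 genes of the ATF4 and unfolded protein responses, 0.05 for 19 heat shock genes, 0.05 for 29 genes of cholesterol synthesis and −0.03 for 20 NRF2 targets. They were 0.07 for 24 interferon-stimulated genes, 0.00 for 18 genes of the BCL2 family and −0.04 for 25 cyclins, CDK inhibitors and RB family genes. The 13 mitochondrially encoded mRNAs had a median of 0.18, which ran from 0.04 to 0.61 over the alternatives. The 43 tested replication-dependent histone genes had a median of −0.18, which ran from −0.63 to 0.07. Of 17 tested circadian clock genes BHLHE40 was the only call, with a median of −0.27. With whole cultures measured, fewer cells that carry a transcript and less of it in each cell cannot be told apart.

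**Figure D3:**
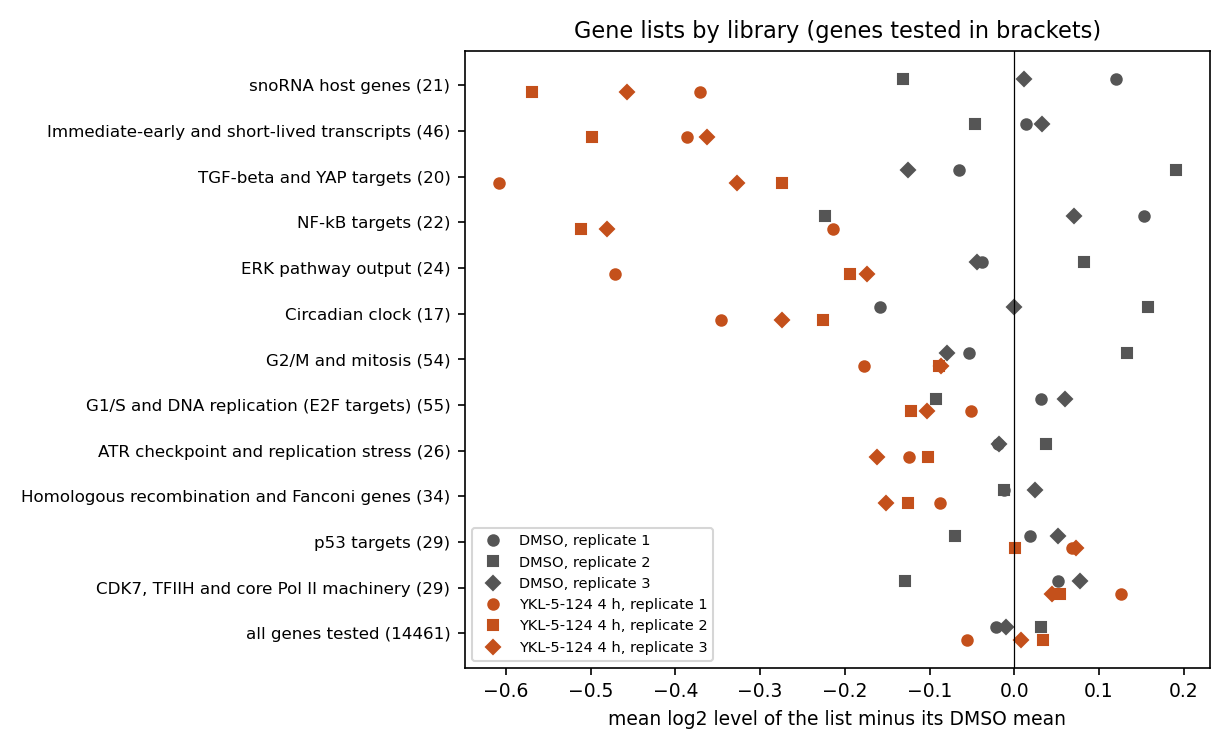
Mean log2 level of 12 gene lists and of all genes tested, relative to the list's mean in DMSO (horizontal axis), for each DMSO (grey) and YKL-5-124 4 h (orange) library; the number of genes tested is in brackets. The snoRNA host, immediate-early, TGF-beta and YAP, ERK, G2/M, ATR and homologous recombination lists have all 3 treated libraries below the controls, narrowly for G2/M. The means of the NF-kB, G1/S, p53 and TFIIH lists overlap.

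The spread between libraries of a group was as large as most of the changes. The median SD of log2 CPM was 0.229 in DMSO and 0.206 after YKL-5-124, against a median SE of 0.209 for the fold change. Over the 6 libraries 24.2% of the variance lay between the groups. With so few libraries, spread within groups also sets group means apart, and much of such a share would arise without any treatment effect. It is thus not the share due to YKL-5-124. The main axis of differences within groups held 41.2% of the variance within groups over the 15 libraries, and genes' weights on it had a correlation of 0.339 across genes with log2 transcript length. In the 3615 genes with the longest transcripts (5187 bases or more), DMSO replicate 2 and YKL-5-124 replicate 2 lay 0.15 and 0.12 above the 6-library mean on the log2 scale, YKL-5-124 replicate 1 lay 0.10 below and YKL-5-124 replicate 3 lay near the mean, at −0.02. In the 3616 genes with the shortest (2096 bases or fewer), DMSO replicate 2 lay 0.20 below, YKL-5-124 replicate 1 lay 0.10 above and YKL-5-124 replicate 3 was at 0.01.

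Genes at the ends of this axis differed widely within a group. PLEC, encoding the cytoskeletal linker plectin, was at 11.2, 278 and 26.8 CPM in DMSO and at 11.8, 65.4 and 92.7 CPM after YKL-5-124. RRBP1, a ribosome-binding protein of the endoplasmic reticulum, was at 2, 48.9 and 4 CPM in DMSO and at 2.75, 21.5 and 28.3 CPM after treatment. SYTL3, a synaptotagmin-like protein, ran the other way, at 16.2, 3.75 and 13.6 CPM in DMSO and 12.6, 2.88 and 3.52 CPM after treatment. For these genes DMSO replicate 2 and YKL-5-124 replicates 2 and 3 lay on one side, with DMSO replicate 2 beyond both for PLEC and RRBP1, and YKL-5-124 replicate 1 lay close to DMSO replicates 1 and 3. The labels give no batch that follows this split, and its source was not tested. With the slope on transcript length of each library as a covariate in the edgeR fit, 1015 genes were called, 295 higher and 720 lower, and all 75 were among them. The slope was taken from each library's deviation from its own group mean in these same data. It thus takes up spread within groups and hardly touches the difference between them. More calls follow largely from how it was made, so this fit is no independent check.

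**Figure D4:**
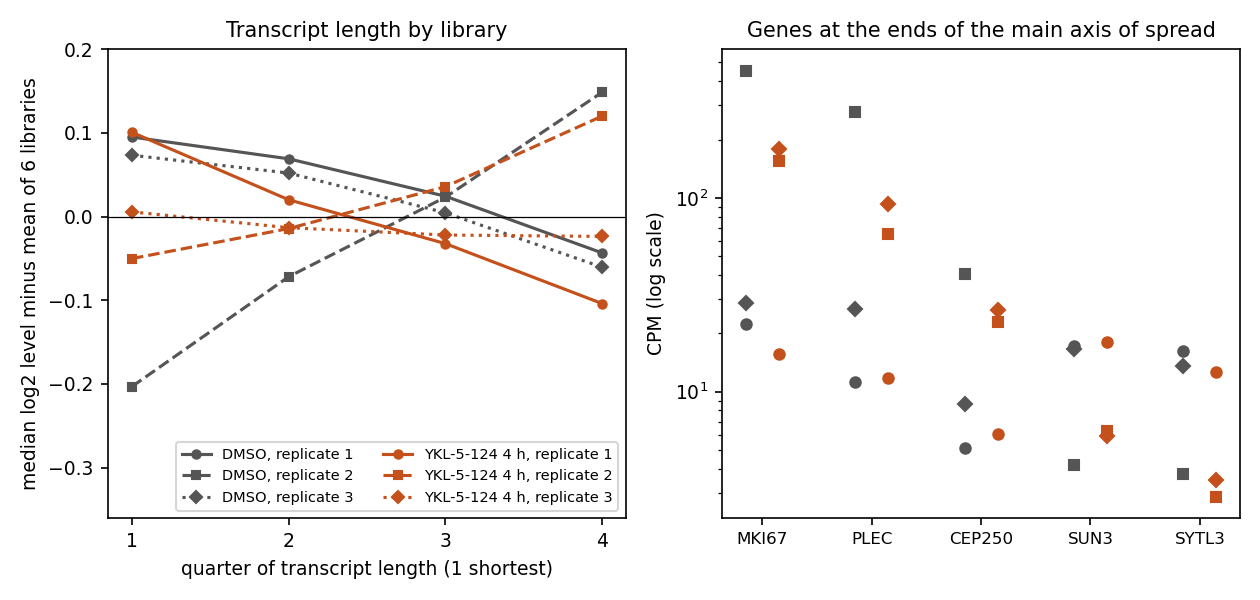
Left, the median log2 level relative to the mean of the 6 libraries (vertical axis) in 4 bins of genes ordered by transcript length (horizontal axis, shortest first) for each library. Right, CPM (log scale) of 5 genes at the ends of the main axis of differences within groups; DMSO replicate 2 (grey squares) lies on the same side of DMSO replicates 1 and 3 as YKL-5-124 replicates 2 and 3 do, and beyond both in MKI67, PLEC, CEP250 and SUN3.

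THZ1 at the same dose and time moved far more genes. Against the same DMSO libraries, 3630 genes (25.1% of those tested) were lower and 2439 (16.9%) higher after 4 h of THZ1, and 1839 (12.7%) lower and 1290 (8.92%) higher after 24 h of YKL-5-124. These comparisons share the DMSO libraries, so values are given side by side. Of the 67 genes lower after 4 h of YKL-5-124, 61 were lower, none higher and 6 not called after 4 h of THZ1, at a median log2 fold change of −1.57 against −0.95. After 24 h of YKL-5-124, 41 of them were lower, 6 higher and 20 not called, at a median of −0.54.

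A direct test sets the YKL-5-124 libraries of 4 h against the THZ1 libraries of 4 h, at the same dose and time, and these groups share no library. In this edgeR test 3172 genes (21.9%) were higher and 1649 (11.4%) lower with YKL-5-124. The split depended on scaling: with library totals it was 4168 to 199, with ribosomal protein mRNAs as reference 4460 to 26, and with RLE factors 2884 to 2524. Library totals moved the median of all genes by 0.24 and the ribosomal reference by 0.42 on the log2 scale. Both compounds carry an acrylamide that reacts with a cysteine of CDK7, on different scaffolds. For 7963 genes (55.1%) the 95% interval of their difference lay within 2-fold either way.

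Among the 67 lower genes, which were chosen on these same YKL-5-124 libraries, 41 were higher with YKL-5-124 than with THZ1, 8 lower and 18 not called. All 10 signal regulators were in the first set, by 1.26 to 3.73 on the log2 scale: DUSP1 had log2 fold changes over DMSO of −1.15 with YKL-5-124 and −4.88 with THZ1, JUN of −1.15 and −4.49, and PLK2 of −1.34 and −3.92. ADM was at −1.55 and −4.63, CYR61 at −0.65 and −3.82, and the mitotic inhibitor gene FBXO5 at −0.69 and −3.46. Among the 8 genes lower with YKL-5-124 than with THZ1, EIF4A2 differed by −0.48 (edgeR adjusted p = 0.014), HNRNPDL by −0.44 (edgeR adjusted p = 0.0037), RABGGTB by −0.50, NUP35 by −0.55 and L3MBTL3 by −0.67. LMNB1 and HK2 were also lower with YKL-5-124, by −0.33 and −0.40, and changed sign to 0.09 and 0.01 with the ribosomal reference. That reference moved the median of all genes by 0.42 and left only 26 genes lower. The shift is close in size to the differences of EIF4A2 and HNRNPDL, so these depend on scaling too. SNHG3 was at −1.33 with YKL-5-124 and −2.18 with THZ1, and SNHG12 at −1.55 and −1.97. Of the 8 higher genes 3 were higher and 3 lower after THZ1: TNFRSF10D was at 1.22 and 1.46, ZFR at 0.50 and 0.55, but KRCC1 at 1.12 and −2.48 and ZNF425 at 1.63 and −2.19.

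**Figure D5:**
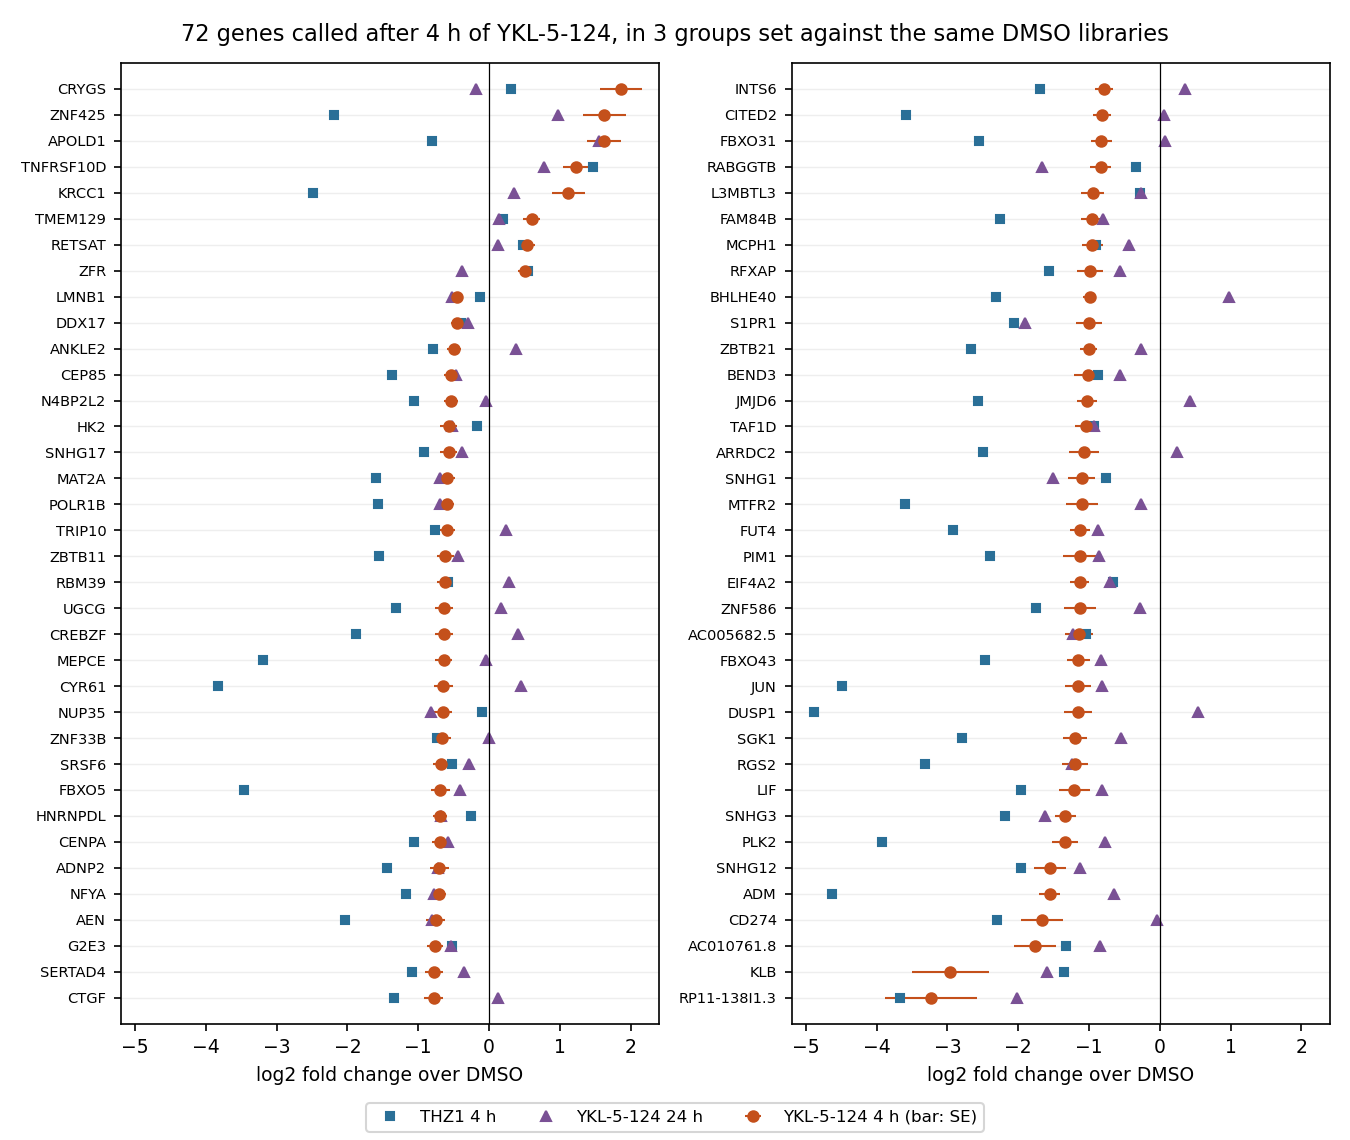
Log2 fold change over DMSO (horizontal axis) of 72 genes called after 4 h of YKL-5-124 (orange circles with SE), with the values of THZ1 4 h (blue squares) and YKL-5-124 24 h (purple triangles); the 3 sets share the DMSO libraries. Most lower genes have their THZ1 point further left, as ADM at −4.63, and BHLHE40 has its 24 h point on the other side of 0, at 0.97.

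Among called coding genes that averaged 3 CPM or more and whose groups did not overlap, those most raised with YKL-5-124 relative to THZ1 at 4 h were ZNF627, HPS6, ZBED8, MOCS3 and CHAC1, with differences of 5.21, 5.00, 4.99, 4.75 and 4.71 on the log2 scale. The most lowered under the same limits were RAPH1, ANKRD36, SESN1, ANKRD36B and TVP23C, by −1.62, −1.24, −1.16, −1.10 and −1.08. SESN1 is a p53-induced sestrin. The exons of RAPH1 overlap those of ABI2 over 75.8% of their length, and whether the counting used strand is not given, so reads from these genes cannot be told apart. ANKRD36 and ANKRD36B are near-identical copies, and how reads shared by them were counted is not given.

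The 4 h and 24 h libraries of YKL-5-124 differed widely. Set against the 24 h libraries, with which they share none, the 4 h libraries had 1716 genes (11.9%) higher and 1333 (9.22%) lower, a split that was 131 to 6763 with the ribosomal reference, 1044 to 2286 with library totals and 1398 to 1583 with upper-quartile factors. These moved the median of all genes by −0.67, −0.16 and −0.06. Of the 67 lower genes 31 were lower at 4 h than at 24 h, 3 higher and 33 not called. The 67 were chosen for low values in these same 4 h libraries, so an excess on the lower side follows in part from that choice. BHLHE40 averaged 18.5 CPM in DMSO, 9.33 CPM at 4 h and 36.4 CPM at 24 h, and DUSP1 60.8, 27.3 and 88.7 CPM. RABGGTB had log2 fold changes over DMSO of −0.83 at 4 h and −1.67 at 24 h. All 8 snoRNA-bearing genes were lower than DMSO at 24 h as well, SNHG3 at −1.63 and EIF4A2 at −0.70. At 24 h 12.7% of all genes were called lower, and 84 of the 243 genes that hold a snoRNA. The 8 were chosen for low values against these same DMSO libraries, which favours this side. With the ribosomal reference the median of all genes at 24 h against DMSO moved by 0.58. CPSF6, a cleavage factor of mRNA 3′ ends, was among the 5 genes most raised at 4 h relative to 24 h under the same limits on call, level and overlap: it was at 165, 164 and 151 CPM at 4 h and at 42.3, 42 and 40.7 CPM at 24 h, with 155, 128 and 143 CPM in DMSO. The other 4 were LRRN4, MRM1, DGKG and DHRS11, by between 1.92 and 2.29. Those most lowered at 4 h relative to 24 h were the histone genes HIST1H2BJ (−4.14) and HIST1H2AG (−3.43), the Notch target HES1 (−3.49), the growth factor gene PDGFB (−3.24) and CRISPLD2 (−3.21). The G1/S list, at a median of −0.07 against DMSO at 4 h, had a median of −0.64 at 24 h, and the immediate-early list −0.35 and 0.49.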

How the data were processed

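PATU-8988T RNA was sequenced in 15 libraries, 3 per group. The authors deposited raw read counts per Ensembl gene with gene positions. The build GRCh38 is named per the submitters' processing notes, with featureCounts 1.5.0-p3 and the aligner STAR 2.6.1d; DESeq2 1.24.0 is named there too. The sources used here do not state the strand setting or how reads with several matches were treated. No row lacked a gene name.

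Groups were taken from the labels. Genes were kept by edgeR's filterByExpr (at least 10 reads in a library of median size and 15 in all, by group), which left 14461, of them 12212 protein-coding. The 15 libraries were fitted together in edgeR 4.0.16 (R 4.3.3) with group as the only term, TMM factors, and the quasi-likelihood F test, adjusted by Benjamini-Hochberg over the genes tested, at a threshold of 0.05. This pools the spread over 5 groups. SE is the fold change divided by the square root of F. CPM uses TMM library sizes, except for the cell type markers, where it uses all counted reads. Alternatives were DESeq2 1.42.0, limma 3.58.1 (voom), other scalings and filters, a test against a 1.2-fold change, a replicate block, a length covariate and leaving out each library. Leaving out both libraries that stand apart was added after the data were seen. The fitting code was tested on simulated data.

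Transcript length, exon overlap and snoRNA positions came from GENCODE 29, which held 100% of the gene identifiers and the same span for 95.3%. Intervals for genes with few reads cover counting error only.

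Genes and gene lists were chosen with earlier results of these data known, so lists are described by counts and medians. Named genes are the 15 largest coding falls and rises among called genes of at least 3 CPM, topped up to 10 by lowest p where fewer passed, the 3 largest noncoding changes, up to 3 called members per list, CDK7, CCNH, MNAT1, CDK12, CDK13 and MKI67, and 5 per side in the other comparisons. The remaining called genes, the uncalled list members and the genes of the main axis were named after their values were seen. A few called genes are counted but not reported here by name.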

Additional observations from a re-analysis of the deposited data

Results flagged for a closer look

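For 17 of the called genes 4 h and 24 h of YKL-5-124 fell on opposite sides of DMSO, and the difference between the times itself passed the quasi-likelihood test of edgeR after Benjamini-Hochberg adjustment. The DMSO cultures serve both times and have no time in the labels. The genes were also called on the same 4 h libraries, which favours a difference between the times in the direction of the call. Differences are of 4 h minus 24 h on the log2 scale. The repressor gene BHLHE40 differed by −1.96, being 0.97 above DMSO at 24 h, and the phosphatase gene DUSP1 by −1.70. Genes acting on RNA were among them: JMJD6 by −1.45, INTS6 by −1.14 and RBM39 by −0.90. The secreted factor genes CYR61 and CTGF differed by −1.09 and −0.90. Regulators of transcription were CREBZF by −1.05, CITED2 by −0.88 and ZNF33B by −0.67. The remaining lower genes were ARRDC2 (−1.32), FBXO31 (−0.90), ANKLE2 (−0.88), TRIP10 (−0.83) and UGCG (−0.80). In the other direction ZFR differed by 0.88 and CRYGS by 2.06. Of these 17, the values over DMSO at 24 h passed the threshold for BHLHE40, JMJD6, INTS6, CYR61, CREBZF, ANKLE2 and ZFR; for the rest the side at 24 h was not called.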

How the results depend on the processing

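The count of genes called after 4 h of YKL-5-124 (75: 8 higher, 67 lower) depended on the processing, while every called gene kept its sign. DESeq2 called 377 (78 and 299), limma-voom 214 (27 and 187), no filter 190 (39 and 151), the length covariate 1015 (295 and 720), the 6 libraries alone 15 (1 and 14), the test against a 1.2-fold change 33 (3 and 30), and leaving out both libraries that stand apart, added after the data were seen, 182 (45 and 137). With ribosomal protein mRNAs as reference 3 genes were higher. Leaving out each library gave 8 to 72 calls, 0 to 8 higher and 8 to 64 lower. With a replicate block 140 (14 and 126) were called, and 126 (13 and 113) in the 6 libraries alone. Same-numbered libraries had correlations of deviations of 0.53, 0.48 and −0.25, and differently numbered ones ran from −0.67 to 0.44. Deviations from a group mean depend on each other, so these values cannot decide whether the numbers pair the samples. Against THZ1 4 h the length covariate gave 7720 calls and the 1.2-fold test 3012. Against 24 h they gave 6044 and 1720, and the ribosomal reference 6894. With the ribosomal reference signs reversed against THZ1 for LMNB1 (0.0939) and HK2 (0.013), and against 24 h for NFYA (−0.61), MNAT1 (−0.60), RETSAT (−0.27), ADNP2 (−0.65), LMNB1 (−0.61), RGS2 (−0.64), POLR1B (−0.58), CCNH (−0.36), NUP35 (−0.52), MAT2A (−0.57), TMEM129 (−0.20), AEN (−0.63) and AC005682.5 (−0.54). The cause of these differences was not tested.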
